A study of Mus musculus with 3 samples.

Results

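The genes described here are 10 transcription factors: *Sox17*, *Msx1*, *Sox9*, *Sox4*, *Cdx1*, *Cdx2*, *Hnf4a*, *Gata4*, *Gata6* and *Onecut2*. They were chosen by name, as factors of gut identity, of crypt progenitors or of tissues outside the intestine, and they are 10 of the 27998 genes counted. All 10 were found under these symbols, and each is followed over the cell classes of 3 libraries.

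The study profiled single cells of the mouse small intestine, sorted for EpCAM, a surface protein of epithelial cells, to learn what the transcription factor Lef1 does in adenomas that lack the Wnt inhibitor Apc. All mice were C57BL/6, were 7 to 8 weeks old at the start and were given tamoxifen in 2 doses of 2 mg. The WT library came from wild-type intestine on day 21 after tamoxifen. The *LApc* library (Lgr5-CreERT2;Apc fl/fl) was taken on day 29 and the *LApcL* library, which added Lef1 fl/fl to those alleles, on day 21, when these mice met the criteria for euthanasia. Because the Cre enzyme is driven by *Lgr5*, a gene of the crypt stem cells, recombined and unrecombined cells lie side by side in the same tissue. There was 1 library per genotype, so genotype cannot be told apart from mouse, library or, for *LApc*, from day. No test between genotypes was therefore possible, and every interval below is a 95% interval for counting error only.

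The identity of the gut tube is held by a small set of transcription factors. Cdx1 and Cdx2 are homeobox proteins that keep the intestine from taking on a stomach-like program, Hnf4a drives the genes of absorptive enterocytes, and Gata4, Gata6 and Onecut2 help to set the differences between the upper and lower small intestine. Sox9 and Sox4 are HMG-box factors of crypt progenitors and of some secretory cells, Sox17 is an HMG-box factor known for forming the early endoderm and for its roles in blood vessels, and Msx1 is a homeobox factor of limb and craniofacial tissue that also marks ectopic crypts in intestinal tumours.

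On GRCm38, with the GENCODE annotation, *Sox17* lies on the minus strand at chr1:4490931-4497354, *Msx1* on the minus strand at chr5:37820485-37824583 and *Sox9* on the plus strand at chr11:112782224-112787760. *Sox4* lies on the minus strand at chr13:28948919-28953713, *Cdx2* on the minus strand at chr5:147300805-147307270, *Hnf4a* on the plus strand at chr2:163506808-163572910 and *Gata4* on the minus strand at chr14:63198922-63271692.

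Promoter sequences were available for 4 of the 10 genes, from RefSeq on GRCm38.p6, as the 250 bases before and 50 after each annotated start. *Msx1*, *Cdx2* and *Hnf4a* are shown because the first was among the genes most increased in adenoma cells and the others were lower there. Capitals mark a match, on either strand, to the Gata core AGATAA or the Hnf1 motif GTTAAT. The sequences read 5′ to 3′ on the strand of the gene: *Msx1* at chr5:37824536-37824835 (minus strand), *Cdx2* at chr5:147307200-147307499 (minus strand), and the upstream and downstream starts of *Hnf4a* at chr2:163506607-163506906 and chr2:163546905-163547204 (plus strand).
Msx1: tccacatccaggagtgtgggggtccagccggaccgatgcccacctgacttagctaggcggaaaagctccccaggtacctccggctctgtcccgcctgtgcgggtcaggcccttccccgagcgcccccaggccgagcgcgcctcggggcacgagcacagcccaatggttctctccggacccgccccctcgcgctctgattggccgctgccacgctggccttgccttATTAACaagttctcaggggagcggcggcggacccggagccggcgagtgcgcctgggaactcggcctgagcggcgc
Cdx2: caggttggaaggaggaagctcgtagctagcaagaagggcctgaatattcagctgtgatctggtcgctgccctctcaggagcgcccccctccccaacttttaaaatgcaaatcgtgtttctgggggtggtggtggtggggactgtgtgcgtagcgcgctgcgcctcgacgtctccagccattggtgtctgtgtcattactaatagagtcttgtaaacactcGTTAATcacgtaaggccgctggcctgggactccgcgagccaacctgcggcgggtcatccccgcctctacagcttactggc
Hnf4a upstream start: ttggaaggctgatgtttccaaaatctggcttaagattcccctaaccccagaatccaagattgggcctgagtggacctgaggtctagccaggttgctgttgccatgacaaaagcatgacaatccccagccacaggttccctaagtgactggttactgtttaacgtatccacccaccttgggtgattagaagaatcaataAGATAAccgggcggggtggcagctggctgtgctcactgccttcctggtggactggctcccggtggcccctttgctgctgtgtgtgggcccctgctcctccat
Hnf4a downstream start: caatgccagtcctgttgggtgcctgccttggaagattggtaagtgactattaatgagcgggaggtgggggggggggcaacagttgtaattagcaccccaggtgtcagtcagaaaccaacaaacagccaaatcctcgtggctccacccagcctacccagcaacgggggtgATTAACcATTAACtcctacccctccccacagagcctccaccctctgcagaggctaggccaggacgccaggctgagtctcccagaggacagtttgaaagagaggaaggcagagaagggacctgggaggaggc

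The *Msx1* promoter was rich in G and C, at 70.0% of its bases, and held GTTAAT on the opposite strand at positions -25 to -20 from the start. *Cdx2* held GTTAAT at -30 to -25, the upstream start of *Hnf4a* held AGATAA at -52 to -47, and its downstream start held GTTAAT on the opposite strand at -81 to -76 and at -74 to -69. GTTAAT was found in 7.10% and AGATAA in 11.2% of all 32851 promoters of this length, and the motifs do not overlap one another. The Tcf/Lef core CTTTGA, found in 16.0% of all promoters, and the Cdx core TTTATG, found in 11.9%, were in none of these 4 windows. The *Sox4* promoter, the remaining one available, held none of the 4 motifs.

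The libraries held 11453 (WT), 13214 (*LApc*) and 17388 (*LApcL*) cell barcodes, of which 10109, 9578 and 14381 were kept, with median counts of 9711, 6125.5 and 10154 unique molecular identifiers (UMIs, each 1 captured RNA molecule) per cell. Cell classes were rebuilt from marker genes without using the 10 factors, and every measured marker of every class was at least 1.5-fold higher in its class. The same markers named the clusters, so this restates the naming. By single cluster fewer were raised. These were 8 of 12 Wnt/TA markers in the cluster that holds most adenoma cells and 5 of 10 enterocyte markers in the one led by *Fabp6*. Cells with the markers of crypt progenitors and Wnt signalling, called Wnt/TA-like after the study's Wnt and transit-amplifying cells, were divided into adenoma-enriched cells and other crypt-type cells with a subcluster called adenoma-enriched when under 10% of it came from WT after the libraries were weighted to equal size. The adenoma-enriched subclusters held 4 WT, 1222 *LApc* and 8993 *LApcL* cells, which were 12.8% and 62.5% of the kept cells of the last 2 libraries, and the 4 WT cells are given no level of their own. A 3′-end count cannot show the loss of an *Apc* exon. *Lef1* stood at 22.1 CPM (UMI counts summed over the cells of a class and scaled to a common total) in *LApc* adenoma cells, 3.69 in *LApcL* adenoma cells and 0.346 in WT crypt-type cells, and *Epcam* was detected in at least 90% of the cells of every class. Between 122 and 219 kept barcodes were shared by each pair of libraries. Leaving these out moved none of the counts of factors given below by more than 1.5-fold. The *LApc* library stood apart in quality, with 2342 barcodes over the limit of 20% mitochondrial UMIs against 62 in WT and 413 in *LApcL*. Separately, 35.02% of the *LApc* adenoma cells held a UMI of an immune or stromal marker, against 3.11% in *LApcL*. This share is not by itself a measure of quality, since *Vim* gave most of the stromal level. *Vim* was also among the leading genes of a subcluster drawn without correction between libraries, with 791 *LApc* and 28 *LApcL* cells and led by *Wfdc18*.

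*Sox17* and *Msx1* were the factors that set the adenoma cells apart. In WT crypt-type cells not a single *Sox17* UMI was found among 3063 cells, which allows up to 0.0865 CPM, and *Msx1* stood at 0.173 CPM (0.0635 to 0.377, 6 UMIs). In *LApc* adenoma cells *Sox17* stood at 177 CPM (169 to 186, 1732 UMIs), against 1.15 CPM (0.679 to 1.81, 18 UMIs) in the other crypt-type cells of the same library. In *LApcL* adenoma cells it stood at 309.6 CPM (306 to 313, 33414 UMIs), against 19.9 CPM (17.4 to 22.6, 229 UMIs) in the other crypt-type cells. *Msx1* stood at 124 CPM (117 to 131, 1209 UMIs) in *LApc* adenoma cells and 316 CPM (312 to 319, 34070 UMIs) in *LApcL* adenoma cells. Its levels in the other crypt-type cells of these libraries were 1.08 and 23.2 CPM. Neither gene was used for clustering, yet both were among the leading genes of the cluster that holds most *LApcL* adenoma cells, so the contrast of adenoma with other cells is a description of that cluster.

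**Figure D1:**
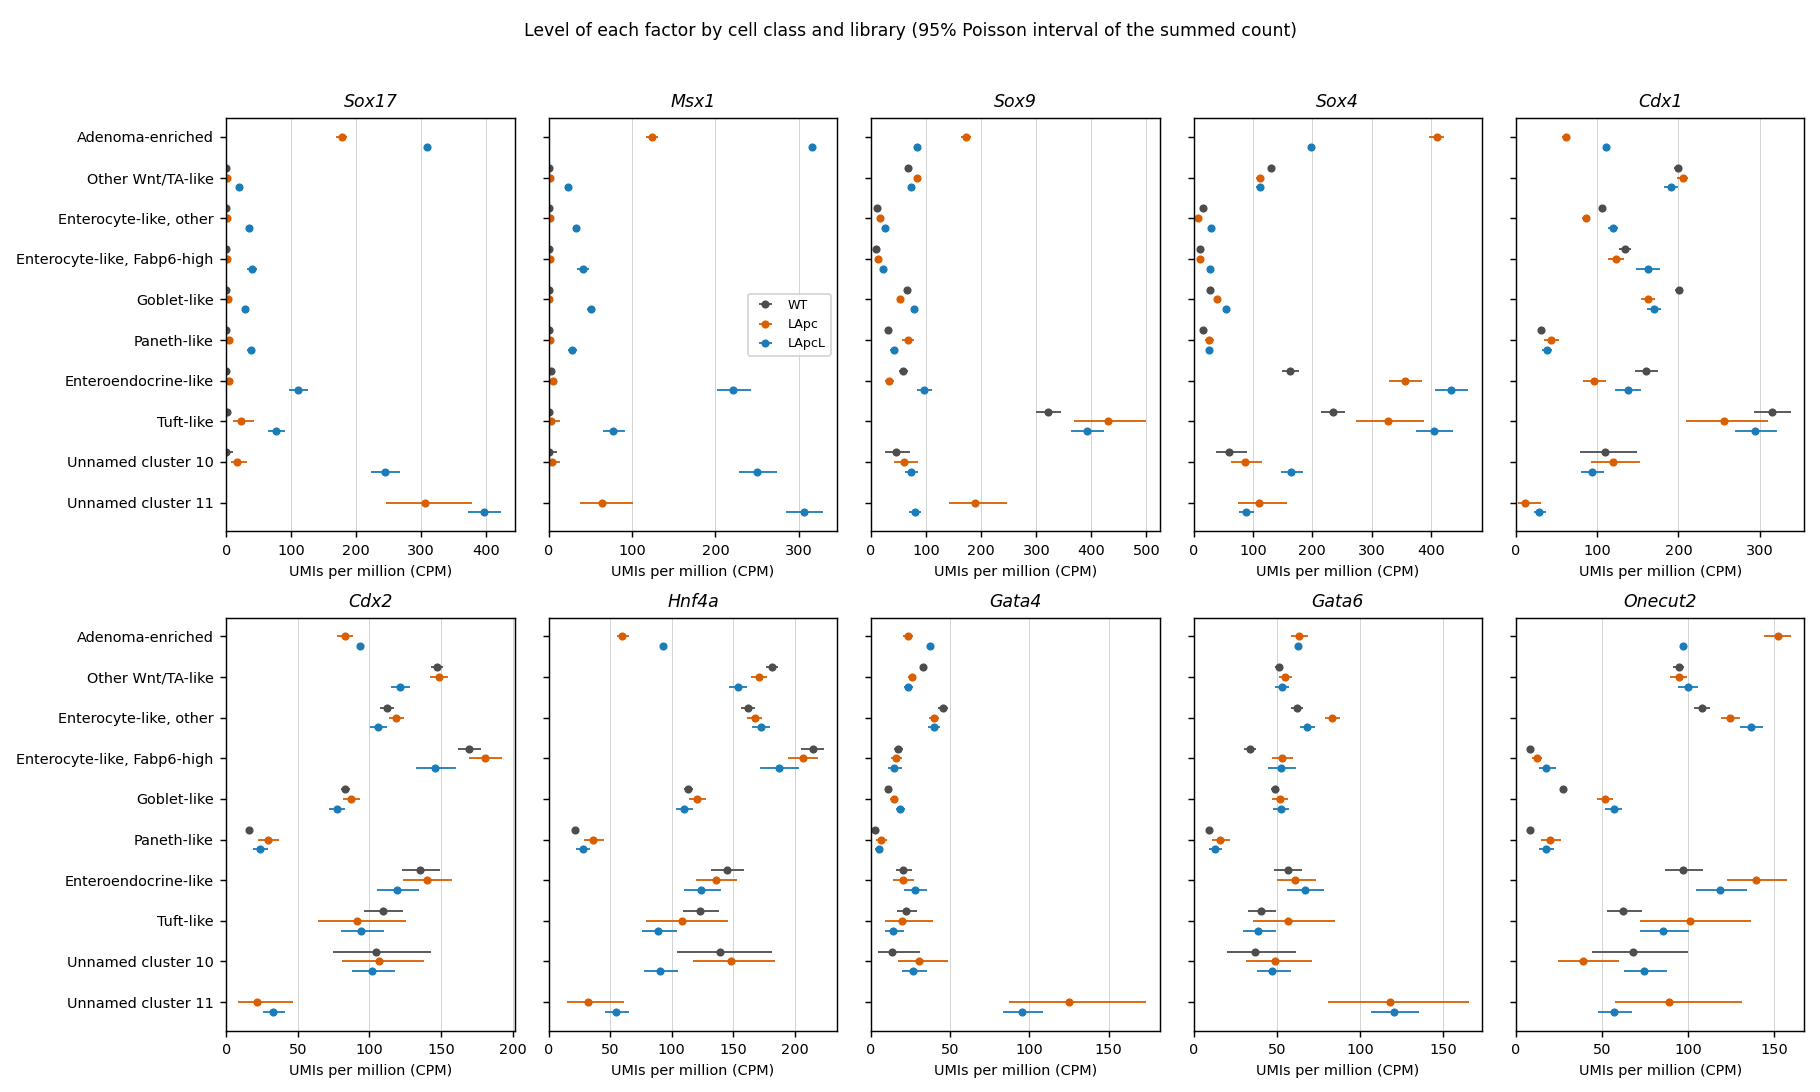
Level of each of the 10 factors in CPM (horizontal axis, linear, from 0) by cell class (vertical axis) in the WT, *LApc* and *LApcL* libraries, 1 library each; points are summed counts and bars 95% Poisson intervals. *Sox17* and *Msx1* lie near 0 in every WT class and are highest, among the classes with a name, in the adenoma-enriched cells of both mutants, whereas *Cdx1*, *Cdx2* and *Hnf4a* are present in every class of every library.

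Over all Wnt/TA-like cells, *Sox17* was at least 795-fold higher in *LApc* and at least 3259-fold higher in *LApcL* than in WT, from a WT count of 0 set to 3 counts over the class. *Msx1* was higher by 8.12 (6.99 to 9.57) and 10.70 (9.58 to 12.15) on the log2 scale. These classes were not made of the same clusters: a single cluster held 3064 WT cells and all other clusters together 3, whereas the cluster that holds most adenoma cells gave 1193 of the *LApc* cells beside 2216 of the WT-like cluster, and 8311 of the *LApcL* cells beside 1876. In both comparisons *Sox17* and *Msx1* were the only 2 of the 10 factors to be called higher, which here means 2-fold or more with a mean of at least 5 CPM, and none was called lower. The background was 7.5% higher and 0.991% lower of 9281 genes for *LApc*, and 8.45% and 5.29% of 9150 genes for *LApcL*. *Sox17* and *Msx1* passed the minimum level only through the mutant cells, so they had to differ.

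The other 8 factors differed less over the same cells. *Sox9* was higher by 0.79 (0.71 to 0.87) in *LApc* and 0.28 (0.21 to 0.34) in *LApcL*, and *Sox4* by 0.78 (0.72 to 0.84) and 0.53 (0.48 to 0.57). *Cdx1* was lower, at -0.40 (-0.46 to -0.35) and -0.74 (-0.79 to -0.70), as were *Cdx2*, at -0.25 and -0.61, and *Hnf4a*, at -0.50 and -0.88. The log2 ratio of *Gata4* was -0.41 and 0.11, that of *Gata6* 0.19 and 0.27, and that of *Onecut2* 0.30 and 0.04. Scaling by trimmed means (TMM), which moves every gene by -0.20 and -0.12 in these comparisons, turned *Gata6* in *LApc* to -0.01 and, in *LApcL*, *Gata4* to -0.01 and *Onecut2* to -0.07. The median over the 10 factors was 0.25 and 0.19, beside 0.09 and 0.09 over all genes tested.

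Taken as a whole, crypt-type cells outside the adenoma-enriched subclusters were close in *LApc* and WT. None of the 8 factors that passed the minimum level was called, where 1.47% of 8941 genes were higher and 0.884% lower. *Sox9* was 83.9 against 67.6 CPM, a log2 ratio of 0.31 (0.21 to 0.41). *Sox4* was 111 against 131 CPM (-0.24, interval -0.32 to -0.16) and *Gata4* 25.96 against 32.98 CPM (-0.35, interval -0.51 to -0.18). The gut factors lay close to their WT levels, with *Cdx1* at 0.04 (-0.02 to 0.10), *Cdx2* at 0.01 (-0.06 to 0.08) and *Hnf4a* at -0.08 (-0.15 to -0.02). The ratio of *Gata6* was 0.11 (-0.01 to 0.23) and that of *Onecut2* 0.00 (-0.09 to 0.09). Within each subcluster of these cells, however, *Onecut2* was higher in *LApc*. It was 132 against 111 CPM in the largest, 90.7 against 74.9 in the *Lgr5*-high one and 33.5 against 16.2 in the one led by *Reg3g*. That last subcluster, low in *Onecut2*, held 514 of the 2187 *LApc* cells and 258 of the 3063 WT cells. *Fabp6*, a gene of the ileum, was lower in *LApc* than in WT in each of these subclusters. It was 162 against 315 CPM in the largest, 233 against 452 in the *Lgr5*-high one and 617 against 2360 in the last. Whether the regional make-up of the cells bears on the difference in *Onecut2* was not tested. Under TMM *Cdx1* and *Cdx2* were at -0.04 and -0.06. *Sox17* and *Msx1* were under the minimum level here. *Sox17* was nonetheless at least 13.2-fold higher in *LApc*, from 18 UMIs, and *Msx1* was higher by 2.64 (1.23 to 4.28).

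Within the *LApc* library, adenoma cells differed from the other crypt-type cells in both arms of the set. *Sox17* was higher by 7.28 (6.61 to 8.03) and *Msx1* by 6.84 (6.15 to 7.62) on the log2 scale, followed by *Sox4* at 409.5 against 111 CPM (1.88, interval 1.80 to 1.96) and *Sox9* at 172 against 83.9 CPM (1.04, interval 0.93 to 1.14). *Cdx1* was lower, at 61.99 against 205 CPM (-1.73, interval -1.85 to -1.60), and so was *Hnf4a*, at 59.8 against 171 CPM (-1.52, interval -1.65 to -1.39). Thus 4 factors were called higher and 2 lower, beside 15.2% and 5.23% of 9731 genes. *Cdx2* was lower by less, at 82.8 against 148 CPM (-0.84, interval -0.96 to -0.73), and *Onecut2* was higher, at 152 against 94.5 CPM (0.69, interval 0.58 to 0.79). *Gata4* had an interval that spans 0 (-0.17, interval -0.41 to 0.07), and *Gata6* (0.20, interval 0.05 to 0.36) turned to -0.07 under TMM, which moves all genes here by -0.27. TMM also put *Sox9* at 0.77, under the 2-fold limit, and *Sox4* at 1.61, and it put *Cdx1* at -1.995, *Cdx2* at -1.11 and *Hnf4a* at -1.78. The calls were then 3 higher and 3 lower.

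Within the *LApcL* library the contrast was narrower. *Sox17* (3.96, interval 3.78 to 4.16) and *Msx1* (3.76, interval 3.59 to 3.94) were called higher and no factor was called lower, beside 7.72% and 4.21% of 9155 genes. *Sox4* was 198 against 112 CPM (0.82, interval 0.74 to 0.90), *Sox9* 83.4 against 71.97 (0.21, interval 0.11 to 0.32) and *Gata4* 36.9 against 23.2 (0.67, interval 0.49 to 0.85). The gut factors were lower in the adenoma cells again, *Cdx1* at 111 against 191 CPM (-0.78, interval -0.85 to -0.71), *Cdx2* at 93.4 against 122 (-0.38, interval -0.46 to -0.30) and *Hnf4a* at 92.9 against 153 (-0.72, interval -0.80 to -0.65). *Gata6* was at 0.23 (0.11 to 0.35) and *Onecut2* at -0.04 (-0.13 to 0.05). TMM moved all genes by -0.16 here and turned the direction of no factor. The median over the 10 factors was 0.45 in *LApc* and 0.22 in *LApcL*, beside 0.19 and 0.17 over all genes tested.

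**Figure D2:**
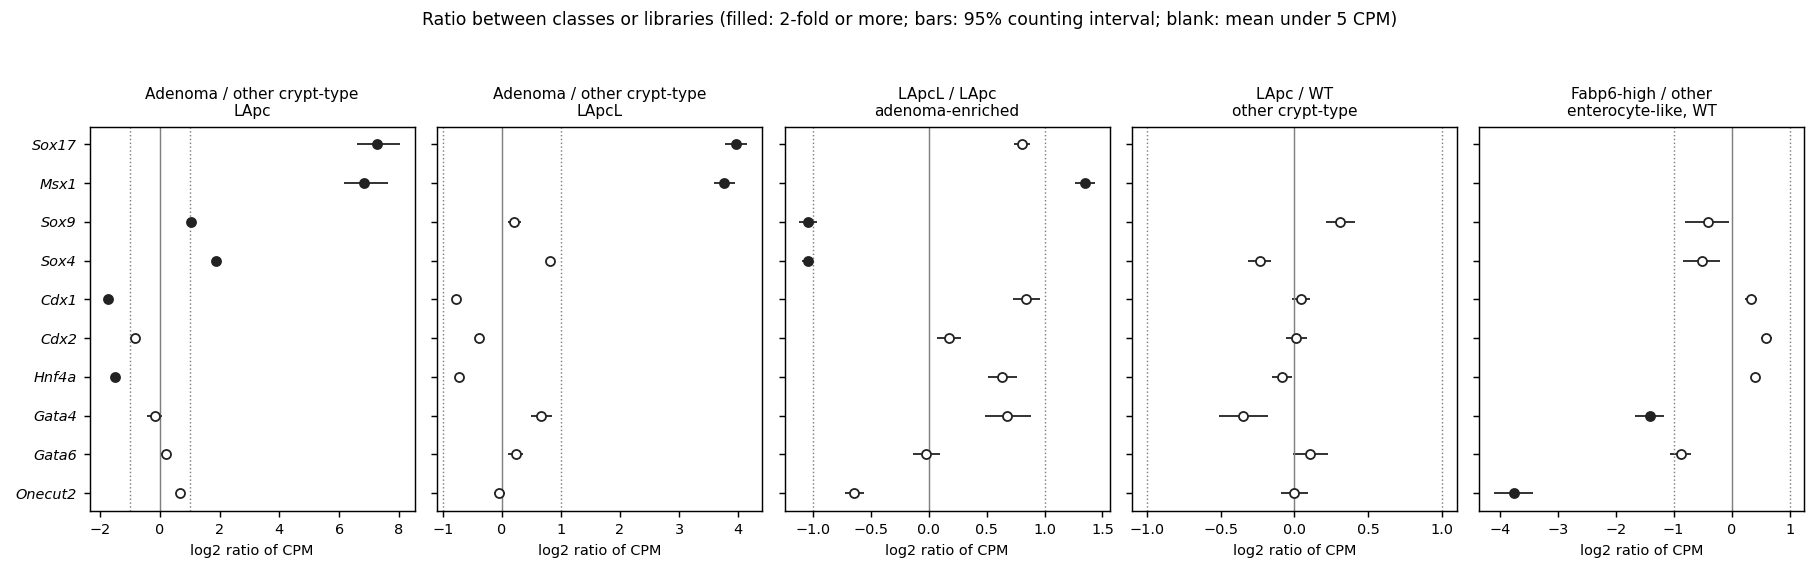
Log2 ratio of CPM (horizontal axis, own range in each panel) of each factor (vertical axis) in 5 comparisons; filled points are 2-fold or more, bars are 95% counting intervals, dotted lines mark 2-fold, and factors with a mean under 5 CPM are left blank. *Sox17* and *Msx1* stand far to the right in both adenoma panels, *Msx1* is the only factor past 2-fold higher in *LApcL* adenoma cells than in *LApc* ones, and *Onecut2* and *Gata4* stand to the left in the Fabp6-high panel.

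Between the adenoma cells of *LApcL* and *LApc*, 1 factor was called higher and 2 lower. *Msx1* was 316 against 124 CPM, a log2 ratio of 1.35 (1.27 to 1.43), and was the 1 factor called higher. *Sox17* was 309.6 against 177 CPM (0.80, interval 0.73 to 0.87). *Sox9*, at 83.4 against 172 CPM (-1.05, interval -1.12 to -0.97), and *Sox4*, at 198 against 409.5 CPM (-1.05, interval -1.10 to -1.001), were the 2 called lower. The background was 0.856% higher and 8.22% lower of 9694 genes. The calls of *Sox9* and *Sox4* sat just past the limit, and TMM, which moves all genes here by 0.23, put both under it, at -0.82 and -0.82. Under TMM *Sox17* (1.03) and *Cdx1* (1.07) passed it beside *Msx1* (1.58), so that 3 factors were called higher and 0 lower, against 1 and 0 when ribosomal protein and mitochondrial genes were left out of the total. Without the cells that held an immune or stromal UMI, *Sox9* and *Sox4* were at -0.96 and -0.89, *Sox17* at 0.57 and *Msx1* at 1.25. Without the neighbour correction that precedes subclustering, *Sox9* and *Sox4* were at -0.52 and -0.25, *Sox17* at 2.03 and *Msx1* at 2.58. The direction of *Sox9* and *Sox4* was the same under every alternative run.

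Of the gut and regional factors, *Cdx1*, *Hnf4a* and *Gata4* were higher in *LApcL* adenoma cells by less than 2-fold. *Cdx1* was 111 against 61.99 CPM (0.84, interval 0.72 to 0.96), *Hnf4a* 92.9 against 59.8 (0.63, interval 0.51 to 0.76) and *Gata4* 36.9 against 23.1 (0.68, interval 0.48 to 0.88). *Cdx2* was 93.4 against 82.8 CPM (0.17, interval 0.07 to 0.28), *Gata6* 62.4 against 63.4 (-0.02, interval -0.14 to 0.10) and *Onecut2*, which was lower, 97.2 against 152 (-0.65, interval -0.72 to -0.57). Under TMM *Gata6* was at 0.21. Without the neighbour correction *Cdx1*, *Cdx2* and *Hnf4a* turned lower in *LApcL*, to -0.34, -0.36 and -0.38, so their direction in this comparison rests on how the adenoma cells were drawn. The median over the 10 factors was 0.40 beside -0.10 over all genes tested.

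Adenoma cells were not uniform, and the make-up of the class differed between the mutants. Of the *LApc* adenoma cells, 258 were S100g-high, with at least 10 *S100g* UMIs per 10000 and more *S100g* than *Wfdc18*. Another 353 were Wfdc18-high, with at least 10 *Wfdc18* UMIs per 10000 and under 10 of *S100g*. The remaining 611 were called neither, a group that can also hold cells high in both genes. In *LApcL* the numbers were 4137, 54 and 4802. These states are ranges of a score and not types, since 2656 of the *LApcL* cells lay within 2-fold of the *S100g* limit. Among S100g-high cells *Sox17* hardly differed, at 412 CPM in *LApc* and 431 in *LApcL*, a log2 ratio of 0.06 (-0.03 to 0.16). *Msx1* was still higher in *LApcL*, at 331 against 223 CPM (0.57, interval 0.44 to 0.70). *Sox9* had a ratio of -0.16 (-0.40 to 0.09) and *Sox4* of -0.47 (-0.61 to -0.33), so neither was 2-fold lower among these cells. *Onecut2* (0.36, interval 0.11 to 0.62) and *Cdx2* (-0.42, interval -0.61 to -0.23) stood in the opposite direction to that over all adenoma cells.

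Wfdc18-high cells showed another pattern. In *LApc* they held 55.6 CPM of *Sox17*, against 412 in the S100g-high and 137 in the remaining adenoma cells. They were the high cells for *Sox9*, at 284 CPM, for *Sox4*, at 514, and for *Onecut2*, at 251. The corresponding *LApcL* cells, 54 in all, held 300.3 CPM of *Sox17*, 159 of *Sox9*, 385 of *Sox4* and 169.7 of *Onecut2*. In the cells that were neither, *Msx1* was 121 CPM in *LApc* and 302 in *LApcL*. There *Cdx1* was 78.2 and 144 CPM, and *Hnf4a* 70.1 and 116.

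The 5 adenoma-enriched subclusters ordered the factors further. Subcluster 1 was led by *Mt4* and *Myl7*, subcluster 7 by *Ccl5*, *Gzma* and *Vim*, which are immune and stromal genes, and subcluster 3 by *Wfdc18*, *Ly6d* and *Clu*, while subclusters 2 and 5 were both led by *S100g*. *Sox17* stood at 69.2 CPM in *LApc* and 145 in *LApcL* in subcluster 1, at 62.9 and 196 in subcluster 7, and at 142 and 328 in subcluster 3. In the S100g-led subclusters it stood at 331 and 412 (2) and at 459 and 475 (5). *Sox17* was therefore highest where *S100g* led, in both mutants. Its ratio between the mutants went from 1.64 (1.23 to 2.08) in subcluster 7 down to 0.05 (-0.09 to 0.19) in subcluster 5, and its interval lay above 0 in 4 of 5.

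*Msx1* was higher in *LApcL* in 5 of 5 subclusters, with intervals above 0, and its ratio ran from 0.59 (0.43 to 0.76) in subcluster 2 to 1.74 (1.58 to 1.90) in subcluster 3. *Sox9* was lower in *LApcL* in 5 of 5 with intervals below 0, at ratios of -0.98 to -0.67, and no subcluster reached a 2-fold difference. *Sox4* was lower in 5 of 5, in 4 with an interval below 0. *Gata4* was higher in 5 of 5, in 4 with an interval above 0, at 13.2 against 21.4 CPM in subcluster 1 and 42.3 against 57.6 in subcluster 5 (*LApc* first). *Cdx1* was higher in 4 of 5 and *Hnf4a* in 3 of 5, with intervals above 0 in 2 and 3, and *Gata6* had no interval clear of 0. *Cdx2* and *Onecut2* were mixed. *Cdx2* had 2 intervals above 0 and 1 below, and *Onecut2* had 1 above and 2 below, from 212 CPM in *LApc* and 132 in *LApcL* in subcluster 1 to 29.5 and 54.6 in subcluster 5.

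**Figure D3:**
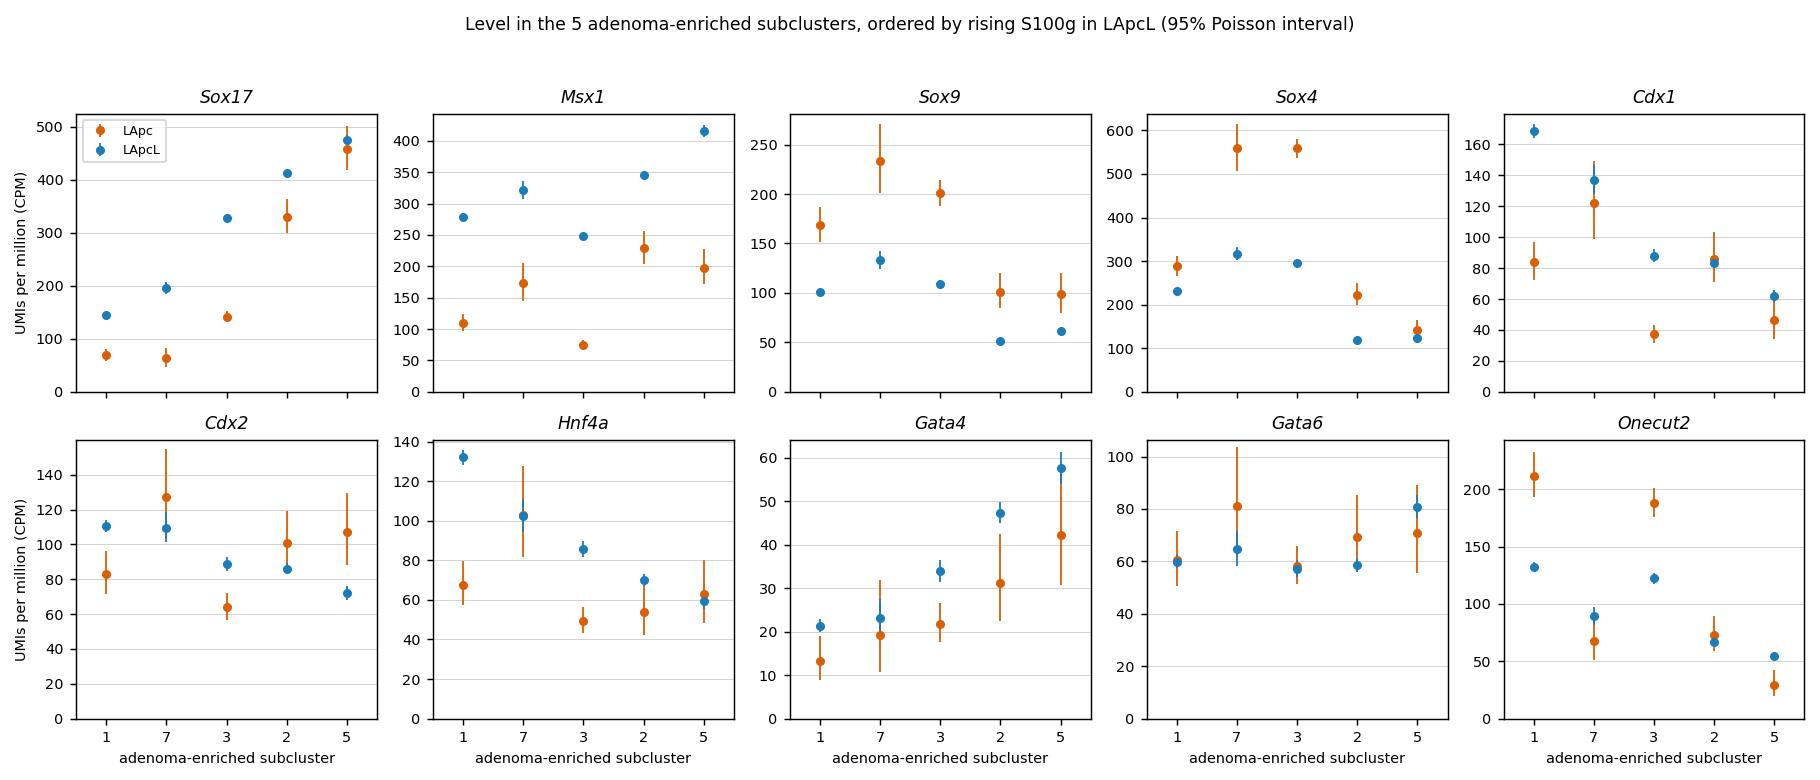
Level of each factor in CPM (vertical axis, linear, from 0) in the 5 adenoma-enriched subclusters (horizontal axis) for the *LApc* and *LApcL* libraries. Bars are 95% Poisson intervals. The order on the axis is not strictly that of rising *S100g*, which in *LApcL* was 570 CPM in subcluster 1 and 468 in subcluster 7. *Msx1* is higher in *LApcL* in all 5 and *Sox9* lower in all 5. *Sox17* is highest in subclusters 2 and 5, and the libraries nearly meet in subcluster 5 only.

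*Sox17* and *Msx1* were detected in a large part of the adenoma cells. After each cell was thinned to 3000 UMIs, a *Sox17* UMI was found in 27.6% (25.1 to 30.3) of 1190 *LApc* and 50.1% (49.02 to 51.1) of 8973 *LApcL* adenoma cells, leaving out 32 and 20 shallower cells. The shares without thinning were 40.8% and 75.9%. *Msx1* was found in 23.3% (20.9 to 25.8) and 54.3% (53.2 to 55.3), or 37.2% and 85.4% without thinning. The other enterocyte-like cells, a class without a UMI of either gene in WT, held a *Sox17* UMI in 8.52% and an *Msx1* UMI in 8.37% in *LApcL*. Whether these UMIs came from the cells themselves was not tested. Their median depth was 8096.5 UMIs, against 11511 in the *LApcL* adenoma cells. In *LApc* the enterocyte-like cells, at a median of 6033 UMIs, held 0.493% and 0.739%, and the adenoma cells there had a median of 7644.5 UMIs.

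**Figure D4:**
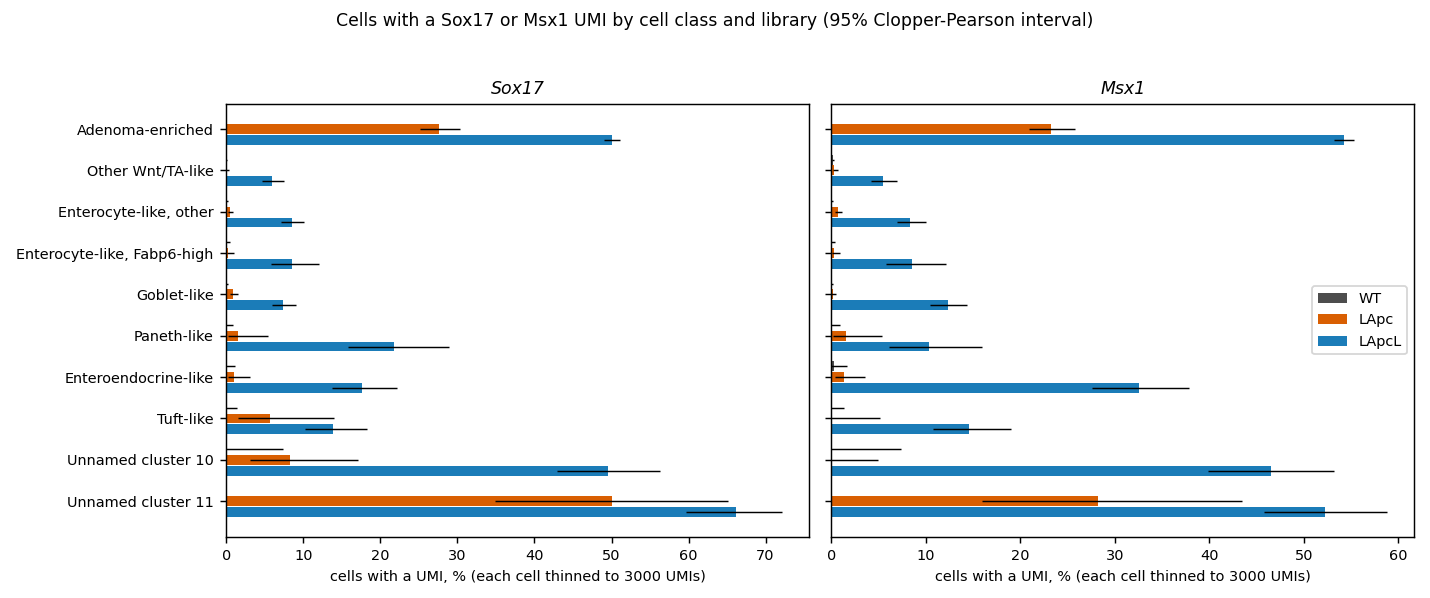
Share of cells with a *Sox17* or an *Msx1* UMI (horizontal axis, percent, each cell thinned to 3000 UMIs) by cell class (vertical axis) and library; bars start at 0 and carry 95% Clopper-Pearson intervals. Adenoma-enriched cells reach 50.1% and 54.3% in *LApcL*, and the other enterocyte-like cells of that library lie at 8.52% and 8.37%.

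Some *LApcL* classes other than the adenoma cells also lay above these enterocyte-like cells. Enteroendocrine-like cells, which make gut hormones, held 110.5 CPM of *Sox17* and 221 of *Msx1*. Their WT levels were 0 and 2.21 CPM, and their *LApc* levels 4.29 and 4.82. The WT count of 0 for *Sox17* allows up to 0.946 CPM. Their thinned shares in *LApcL* were 17.6% and 32.5%. Tuft-like cells, a rare chemosensory type, held 76.6 CPM of *Sox17* and 77.2 of *Msx1* in *LApcL*, at thinned shares of 13.9% and 14.5%. In *LApc* they held 22.1 and 2.46 CPM, from 9 and 1 UMIs in 83 cells. Immune markers summed to 1568 CPM in these *LApc* cells, against 77.2 in WT and 77.8 in *LApcL* tuft-like cells. This limit holds for every *LApc* tuft-like level given here. The median depth of the enteroendocrine-like and tuft-like cells in *LApcL*, 4580.5 and 5063.5 UMIs, was below that of the enterocyte-like cells. The crypt-type (5.97%), goblet-like (7.42%) and Fabp6-high (8.58%) cells of *LApcL* were at or near the enterocyte-like share of *Sox17*. For *Msx1*, goblet-like cells had the next highest level after tuft-like cells. They held 464 UMIs in 1151 cells, against 395 in 1374 enterocyte-like cells. For Paneth-like cells the share (21.8%) goes against the level (37.9 against 34.3 CPM in enterocyte-like cells), so no order is read from it.

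The balance of both genes differed between classes of *LApcL*. In adenoma cells *Sox17* gave 49.5% (49.1 to 49.9) of the *Sox17* and *Msx1* UMIs. Enterocyte-like cells, at 50.9% (47.4 to 54.4), and the other crypt-type cells, at 46.1% (41.6 to 50.6), overlapped with this, as did the Fabp6-high and tuft-like cells. The share was lower in enteroendocrine-like (33.3%, interval 29.8 to 36.9) and goblet-like cells (35.9%, interval 32.4 to 39.5) and higher in Paneth-like cells (57.6%, interval 51.05 to 64.01). In enteroendocrine-like cells of *LApcL*, an *Msx1* UMI was found in 50.8% (37.5 to 64.1) of the 59 cells with a *Sox17* UMI and in 28.6% (23.4 to 34.3) of the 276 without one. What free RNA, or cells captured together, add to these shares was not tested. Barcodes removed as doublets in *LApcL* carried 209 CPM of *Sox17*.

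Adenoma cells with and without a *Sox17* UMI were compared at equal thinned depth. In *LApcL* an *Msx1* UMI was found in 56.99% (55.5 to 58.4) of the 4492 cells with a *Sox17* UMI and in 51.5% (50.03 to 52.98) of the 4481 without one. *Gata4* was found in 12.6% (11.6 to 13.6) of the 4492 cells with a *Sox17* UMI and in 7.59% (6.83 to 8.402) of the 4481 without one. *Sox9*, *Sox4*, *Cdx1*, *Cdx2*, *Hnf4a* and *Onecut2* were found less often in the cells with a *Sox17* UMI. *Cdx1* was at 21.5% against 31.5% and *Hnf4a* at 18.8% against 27.7%. The intervals of *Gata6*, at 16.9% against 17.9%, overlapped. In *LApc*, *Gata4* was found in 11.9% (8.57 to 15.8) of the 329 cells with a *Sox17* UMI and in 5.57% (4.14 to 7.32) of the 861 without one, and *Sox4* in 45.3% (39.8 to 50.8) of the 329 cells with a *Sox17* UMI and in 63.8% (60.5 to 66.98) of the 861 without one. *Msx1* was higher there too, *Sox9* and *Onecut2* were lower, and the intervals of *Cdx1*, *Cdx2*, *Hnf4a* and *Gata6* overlapped. Within S100g-high cells most of these intervals overlapped. In *LApcL* the intervals of *Gata4*, at 13.6% against 12.5%, and of *Msx1*, at 57.9% against 53.6%, overlapped, and those of *Sox9*, *Sox4* and *Onecut2* were the ones that did not. In *LApc* the intervals of every factor overlapped, with *Msx1* at 41.3% against 46.4% and *Gata4* at 14.2% against 5.15%. Cells of 1 library are not replicates, so these shares describe the libraries. Such shares were not computed over all genes, so how many other genes differ in the same way is not known.

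*Sox9*, a crypt progenitor factor, had its highest level in tuft-like cells of all 3 libraries, at 321 (WT), 431 (*LApc*, 83 cells) and 393 CPM (*LApcL*). WT crypt-type cells came next, at 67.6 CPM (64.9 to 70.4, 2345 UMIs), and overlapped with goblet-like cells in their intervals. *LApc* adenoma cells held 172 CPM (164 to 181, 1681 UMIs), the second highest level among the named classes of that library. In *LApcL* the adenoma cells, at 83.4 CPM (81.7 to 85.1, 9001 UMIs), overlapped with both the enteroendocrine-like and the goblet-like cells. Enterocyte-like cells outside the Fabp6-high cluster were low, at 11.6, 15.5 and 24.4 CPM. Within WT crypt-type cells *Sox9* was highest in the subcluster high in the stem-cell genes *Lgr5* and *Olfm4*, at 128 CPM, against 53.7 in the largest subcluster, led by *Arg2* and *Rbp7*, and 35.8 in the subcluster led by *Reg3g* and *Fabp6*. The proliferation gene *Mki67* was at 31.7, 206 and 208 CPM in these 3 subclusters.

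*Sox4*, which acts in progenitors and in the making of enteroendocrine and tuft cells, was highest in tuft-like cells of WT (234 CPM), followed by enteroendocrine-like cells (162) and crypt-type cells (131). In *LApc* the adenoma cells led, at 409.5 CPM (397 to 422, 3997 UMIs), above the enteroendocrine-like (356) and tuft-like (327, from 83 cells) cells, whose intervals overlapped. In *LApcL* the enteroendocrine-like (434) and tuft-like (405) cells stood above the adenoma cells (198). In WT crypt-type cells *Sox4* was 267 CPM in the *Lgr5*-high subcluster, 99.7 in the largest one and 58.2 in the one led by *Reg3g*. In the enterocyte-like cells outside the Fabp6-high cluster it was 16.4, 7.75 and 29.97 CPM in WT, *LApc* and *LApcL*.

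Between enterocyte-like and Wnt/TA-like cells of WT, *Sox9* (-2.68, interval -2.86 to -2.51) and *Sox4* (-3.15, interval -3.30 to -3.01) were the 2 factors called lower and none of the 8 that passed the minimum level was called higher. The background there was 13.3% higher and 17.8% lower of 8812 genes. *Cdx1* was lower in enterocytes, at -0.78 (-0.84 to -0.72), and *Onecut2* at -0.33 (-0.41 to -0.25). *Hnf4a* (-0.02, interval -0.07 to 0.04) and *Gata6* (0.04, interval -0.06 to 0.14) had intervals that span 0, and under TMM *Hnf4a* was at 0.18. *Gata4* (0.13, interval 0.00 to 0.25) turned to -0.13 when ribosomal protein and mitochondrial genes were left out of the total, and *Cdx2* (-0.16, interval -0.23 to -0.10) turned to 0.04 under TMM, which moves all genes here by 0.20. The median over the 8 factors was -0.25, beside -0.13 over all genes tested.

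*Cdx1*, the Wnt-responsive member of the caudal pair, was present in every class. Its gene lies on chromosome 18, as do *Gata6* and *Onecut2*. Among the named classes, tuft-like cells had the most in each library, at 315, 256 and 295 CPM (overlapping with crypt-type cells in *LApc*), and Paneth-like cells the least, at 30.3, 43.04 and 37.9. Defensin transcripts took up 63.8% to 74.5% of all UMIs of Paneth-like cells, which lowers the CPM of any other gene in that class. Crypt-type cells held 199, 205 and 191 CPM in WT, *LApc* and *LApcL*. The *LApc* adenoma cells held 61.99 CPM (57.1 to 67.1, 605 UMIs), and those of *LApcL* 111 CPM (109 to 113, 11983 UMIs), above the Paneth-like cells and below every other named class of the same library. In WT crypt-type cells *Cdx1* was 291 CPM in the subcluster led by *Reg3g* and *Fabp6*, against 193 and 177 in the largest and the *Lgr5*-high subcluster.

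*Cdx2*, which defines intestinal against gastric fate, was highest in Fabp6-high cells, at 169.8, 181 and 146 CPM. *Fabp6* encodes the bile acid binding protein of the ileum. Crypt-type cells held 147, 148 and 122 CPM. Adenoma cells stood at 82.8 CPM (77.2 to 88.7, 808 UMIs) in *LApc*, overlapping with goblet-like cells, and at 93.4 CPM (91.6 to 95.3, 10085 UMIs) in *LApcL*, overlapping with tuft-like cells. *Hnf4a*, the nuclear receptor of the enterocyte program, was also highest in Fabp6-high cells (214, 206 and 187 CPM, the last overlapping with the other enterocyte-like cells) and, among the named classes, lowest in Paneth-like cells (21.7, 36.02 and 27.6). It stood at 59.8 CPM (55.1 to 64.9, 584 UMIs) in *LApc* adenoma cells and 92.9 CPM (91.04 to 94.7, 10021 UMIs) in *LApcL* ones. The crypt-type levels of *Hnf4a* were 181, 171 and 153 CPM, above the adenoma cells of the same library.

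*Gata4*, a factor of the upper small intestine, had its highest level among the named classes in enterocyte-like cells outside the Fabp6-high cluster, at 45.3 (WT), 39.7 (*LApc*) and 39.5 CPM (*LApcL*). In the Fabp6-high cells it was 17.02, 15.9 and 14.7 CPM. *LApcL* adenoma cells, at 36.9 CPM (35.7 to 38.04, 3980 UMIs), overlapped with the enterocyte-like cells of that library. *LApc* adenoma cells stood lower, at 23.1 CPM (20.1 to 26.3, 225 UMIs), and overlapped with the crypt-type cells. *Gata6*, which is active along the whole small intestine, was 61.9, 83.2 and 68.3 CPM in the enterocyte-like cells and 33.7, 53.03 and 52.6 in the Fabp6-high ones. In adenoma cells it was nearly level, at 63.4 CPM in *LApc* (619 UMIs) and 62.4 in *LApcL* (6736 UMIs).

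*Onecut2*, a cut-homeobox factor of the duodenum and jejunum, had the largest difference of the 8 measurable factors between the enterocyte-like classes. In WT it stood at 108 CPM (104 to 113, 2104 UMIs) in enterocyte-like cells outside the Fabp6-high cluster and at 8.04 CPM (6.34 to 10.05, 77 UMIs) in the Fabp6-high ones, and in the mutants at 125 against 12.1 (*LApc*) and 137 against 17.7 CPM (*LApcL*). Its log2 ratio in WT was -3.75 (-4.10 to -3.42), and that of *Gata4* was -1.41 (-1.66 to -1.17). These were the 2 factors called lower in Fabp6-high cells, and none of the 8 that passed the minimum level was called higher, beside 3.02% higher and 3.91% lower of 8268 genes. *Gata6* was lower too, at -0.88 (-1.06 to -0.70), and *Cdx1* (0.33, interval 0.23 to 0.44), *Cdx2* (0.60, interval 0.50 to 0.69) and *Hnf4a* (0.41, interval 0.33 to 0.49) were higher. The low levels of *Sox9* (-0.42, interval -0.80 to -0.05) and *Sox4* (-0.51, interval -0.84 to -0.20) turned to 0.34 and 0.26 when classes were set cell by cell from marker scores. The median over the 8 factors was -0.46, beside -0.08 over all genes tested.

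In *LApc* adenoma cells *Onecut2* held 152 CPM (144 to 160.0, 1484 UMIs) and overlapped with enteroendocrine-like cells (139 CPM). In *LApcL* the adenoma level, 97.2 CPM (95.4 to 99.1, 10492 UMIs), overlapped with that of the crypt-type cells (100.1). In WT crypt-type cells *Onecut2* was 111 CPM in the largest subcluster, 74.9 in the *Lgr5*-high subcluster and 16.2 in the one led by *Reg3g* and *Fabp6*. *Gata4* had the same order, at 38.4, 22.9 and 15.6 CPM, while *Gata6* was 48.9, 58.9 and 49.6.

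A small cluster without WT cells carried an unusual mixture of the factors. It held 50 *LApc* and 240 *LApcL* cells, was led by *Atp4a*, *Apoa2*, *Pgc* and *Apoe*, and was given no class name. Its highest marker score was for endothelial markers, of which 3 were raised, and Wnt/TA markers were raised as well. *Sox17* stood at 307 CPM in *LApc* and 397 in *LApcL*, and *Msx1* at 64.2 and 306. Its intestinal factors were low: *Cdx1* at 10.7 and 28.9 CPM, *Cdx2* at 21.4 and 32.7, and *Hnf4a* at 32.1 and 54.9. *Gata4*, at 125 and 95.6 CPM, and *Gata6*, at 118 and 120.3, were at their highest of any class in their library. Against adenoma cells of the same library the log2 ratio of *Gata4* was 2.44 (1.88 to 2.96) and 1.37 (1.18 to 1.57), that of *Cdx1* -2.53 (-4.82 to -0.98) and -1.94 (-2.30 to -1.60), and that of *Cdx2* -1.95 (-3.40 to -0.82) and -1.51 (-1.86 to -1.19).

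*Pgc*, the precursor of a gastric pepsin, and *Ctse*, another gastric protease, were among the genes that define this cluster, so their levels restate the clustering. *Pgc* stood at 727 (*LApc*) and 1080.3 CPM (*LApcL*) and *Ctse* at 1401 and 426. *Cldn18*, a claudin of the stomach, stood at 538 and 47.8. *Gata5* was at 89.2 and 36.9 CPM and *Sox11* at 103 and 55.8. Another unnamed cluster, with *Rpgrip1* and *Ctrb1* among its leading genes and found in all 3 libraries, held 244 CPM of *Sox17* and 250.3 of *Msx1* in *LApcL*, 16.8 and 3.74 in *LApc*, and no UMI of either in 48 WT cells, which allows up to 7.86 CPM.

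Related genes of fixed lists were followed beside the 10 factors, and are described without a test. A gene with almost no counts in a group passed the minimum level only through the other group, so it had to differ. Of 23 other gut transcription factors, 21 passed the minimum level in adenoma against other crypt-type cells of *LApc*, where 4 were 2-fold higher and 5 lower. Over all genes tested in that comparison 15.2% were higher and 5.23% lower, and in the one of *LApcL* 7.72% and 4.21%. *Prdm1*, the repressor of the immature gut, was 12.6 against 0.827 CPM and *Foxa1* 54.7 against 10.6. The nuclear receptors *Vdr*, at 11.8 against 131, and *Nr5a2*, at 2.77 against 29.01 CPM, were lower. In *LApcL* 4 of 21 were higher and 5 lower, with *Nr5a2* at 1.81 against 25.8 CPM, the bile acid receptor *Nr1h4* at 1.75 against 20.98, *Vdr* at 18.97 against 137 and *Prdm1* at 10.9 against 1.30. The medians of this list were 0.15 and -0.07.

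Few paralogs of the 10 factors were measurable in these cells. Of 18, 5 passed the minimum level in *LApc* adenoma against other crypt-type cells, with 2 higher and none lower, and 3 passed in *LApcL*, again with 2 higher. *Sox21* was 25.3 against 0.191 CPM in *LApc* (7.05, interval 5.49 to 9.34) and 16.7 against 0.867 in *LApcL*, and *Sox11* 10.7 against 0.0636 in *LApc* (7.39, interval 4.88 to 12.71), where the lower value was a single UMI. Factors of other endodermal organs were counted likewise. Of 16, 5 passed in *LApc*, of which 4 were higher and none lower, and 4 passed in *LApcL*, of which 3 were higher and none lower. *Hhex*, known from liver and foregut, was 18.4 against 0.254 CPM in *LApc* and 10.95 against 0.780 in *LApcL*, and *Foxq1*, a forkhead factor of the stomach, 137 against 13.8 and 73.8 against 20.03. *Tbx3* was 90.2 against 14.1 and 77.9 against 15.4 CPM, and *Irx5* 18.5 against 0.382 in *LApc*. *Sox21*, *Sox11*, *Hhex* and *Irx5* passed only through the adenoma cells, so they had to be called higher.

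Stomach and colon genes were counted in the same way. In *LApc* 16 of 18 passed the minimum level, and 12 were 2-fold higher and 3 lower, beside 15.2% and 5.23% of all genes tested. The median over these 16 was 4.94. *Gkn1*, a gastrokine of the stomach lining, was 114 against 0.573 CPM, the gastric mucin *Muc6* 127 against 1.02 and *Ctse* 253 against 2.23. These genes passed the minimum level only through the adenoma cells, so they had to be called higher. In *LApcL* 11 passed, and 7 were higher and 3 lower, beside 7.72% and 4.21% of all genes tested. The median over these 11 was 1.87, from a different set of genes than in *LApc*. There *Gkn1* was 32.5 against 2.43 CPM, *Ctse* 69.4 against 5.20, the water channel *Aqp8* 17.9 against 1.13, and the colon carbonic anhydrase *Car4* was lower, at 1.83 against 30.2.

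Of 24 enterocyte genes, which include known targets of Cdx2 and Hnf4a, 23 were 2-fold higher in enterocyte-like than in Wnt/TA-like cells of WT (median 3.34), with the peptidases *Mep1b* and *Anpep*, lactase (*Lct*) and *Apoa1* at 23.1-fold, 20.2-fold, 20.99-fold and 20.5-fold. In adenoma against other crypt-type cells none was higher, and 7 of 24 in *LApc* and 5 of 21 in *LApcL* were lower, at medians of -0.36 and -0.67. *Tmem37* was 9.43 against 38.2 CPM in *LApc*, and sucrase-isomaltase (*Sis*) 8.68 against 24.8 in *LApcL*. Over all genes tested in these 2 comparisons, 5.23% and 4.21% were called lower, and in that of WT enterocytes 13.3% were called higher.

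**Figure D5:**
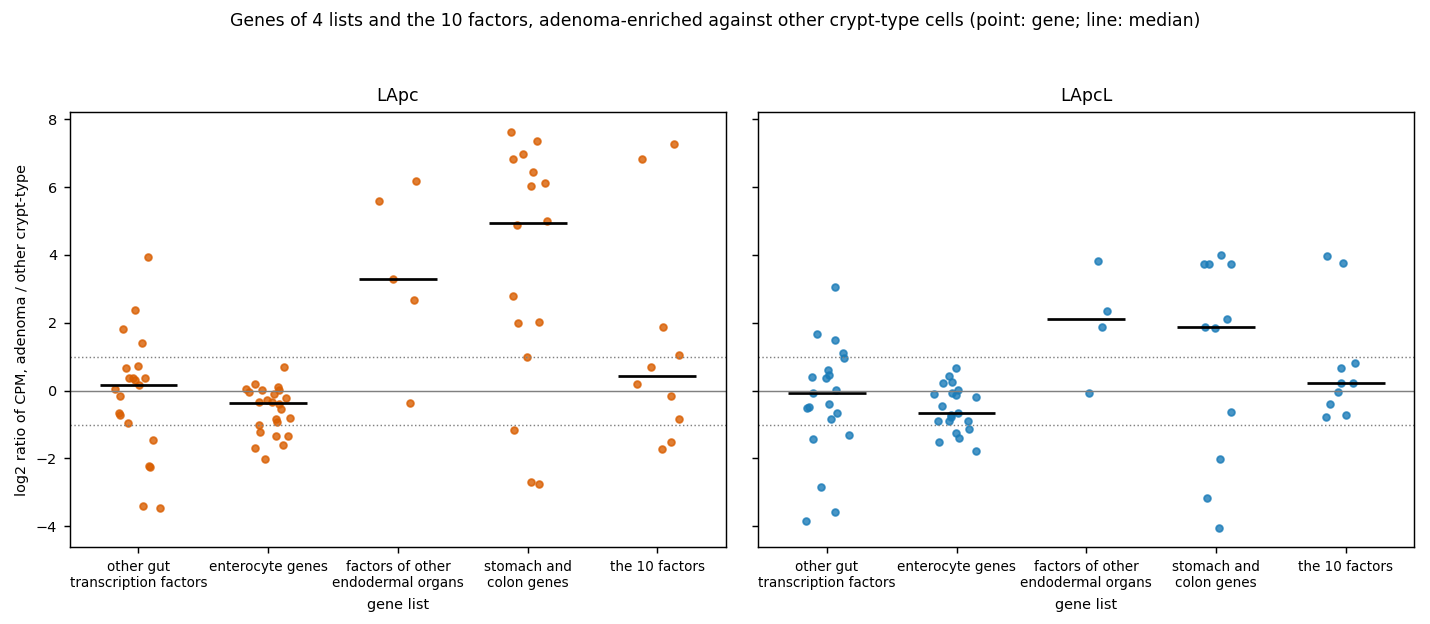
Log2 ratio of CPM between adenoma-enriched and other crypt-type cells (vertical axis) for the tested genes of 4 fixed lists and the 10 factors (horizontal axis), in *LApc* (left) and *LApcL* (right); each point is a gene, black lines are medians and dotted lines mark 2-fold. Stomach and colon genes have medians of 4.94 and 1.87, factors of other endodermal organs of 3.31 and 2.11, and the enterocyte genes lie below 0, at -0.36 and -0.67. The tested genes differ between the panels.

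Between the mutants, the adenoma cells of *LApcL* were lower in several of these lists. Over all genes tested, 8.22% were called lower and 0.856% higher. Of the stomach and colon genes 9 of 14 were 2-fold lower and 1 higher, the latter being *Pgc*, at 97.01 against 13.7 CPM. *Muc6* was 6.56 against 127 CPM and *Gkn3* 85.96 against 412. Of the enterocyte genes 11 of 22 were lower and none higher, with the apolipoproteins *Apoc3* at 26.9 against 116 and *Apoa4* at 84.5 against 344 CPM. Of the gut factors 3 of 19 were lower, *Klf4* (23.1 against 49.6), *Elf3* (162 against 340.1) and *Foxa1* (26.5 against 54.7). Of the paralogs 2 of 7 were lower, among them *Onecut3* (1.41 against 8.91), and of the factors of other organs 1 of 5, *Irx5* (0.519 against 18.5). The 2 libraries also differed in immune and stromal transcripts: the summed level of 7 immune markers was 79.00 CPM in *LApc* and 2.71 in *LApcL* adenoma cells. That of 8 stromal markers was 204 and 2.16, of which *Vim* gave 198 in *LApc* while *Col1a1*, *Col1a2*, *Col3a1* and *Lum* were at 0. Without the cells that held such a UMI, the factors called between the mutants went from 3 to 1. The part of immune and stromal RNA in the remaining differences was not tested.

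Since *Sox17* is also a factor of blood vessels, 8 endothelial markers were followed in the same cells. Their summed level was 59.7 CPM in *LApc* and 44.4 in *LApcL* adenoma cells. Other crypt-type cells held 5.25 (WT), 3.88 (*LApc*) and 8.24 (*LApcL*). The unnamed cluster without WT cells held the most of any class in both mutants, at 118 CPM in *LApc* and 96.8 in *LApcL*. In *LApcL* adenoma cells *Cdh5*, at 15.04 CPM, *Flt1*, at 12.2, and *Tek*, at 9.87, gave most of the sum. *Kdr* (0.0185), *Cldn5* (0.0185), *Emcn* (0.0278) and *Pecam1* (0.463) were near 0 there, while 4 of the 8 markers were over 5 CPM.

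In Fabp6-high against other enterocyte-like cells of WT, the lists held further regional factors. *Pdx1*, the factor of duodenum and pancreas, was 0.522 against 11.2 CPM, *Foxq1* 1.36 against 14.4 and *Creb3l3* 51.6 against 230.5. *Nr1h4*, at 103 against 32.4, and *Maf*, at 268 against 121, were higher. Of the 24 enterocyte genes 2 were higher and 6 lower, beside 3.02% and 3.91% of all genes tested, among them *Fabp1*, at 491 against 8749 CPM. *Mep1a* was one of those higher, at 356 against 56.1.

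For each factor, the genes with the most similar level over 22 sums of a class and a library, with 100 cells or more each, were sought among 12046 genes, the 10 factors left out, by the Pearson correlation of log2 CPM. These sums share libraries and depth, so the correlations are descriptions. *Sox17* and *Msx1*, which had an r of 0.98 with each other, were both nearest to *Myl9* (r of 0.99 and 0.96) and *Pdlim4* (0.97 and 0.96). *Sox9* was nearest to *Cited4* (0.95), *Lfng* (0.93) and *Fam57a* (0.92), and *Sox4* to *D930015E06Rik* (0.97), *Psip1* (0.96) and *B9d1* (0.96). *Cdx1* was nearest to *L1cam* (0.93), *1110059E24Rik* (0.91) and *Gid8* (0.91), *Cdx2* to *Npepps* (0.98), *Atp8b1* (0.97) and *Lrp6* (0.97), and *Hnf4a* to *Arhgap32* (0.97), *Ifi30* (0.96) and *Dolpp1* (0.96). *Gata4* was nearest to *Oxnad1* (0.94), *Bola3* (0.94) and *Dlat* (0.93), *Gata6* to *Ptk2* (0.96), *Heatr6* (0.96) and *D15Ertd621e* (0.96), and *Onecut2* to *Prdm16* (0.95), *Rtn4rl1* (0.93) and *Pdx1* (0.92), the last a factor of the upper gut itself.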

How the data were processed

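Libraries were droplet 3′ single-cell libraries of sorted EpCAM+ cells, quantified by the authors with Cell Ranger 2.1.1 on mm10 (GRCm38), per the submitters' processing notes. The study's methods name kit versions 2 and 3 without giving which was used for each library. The deposited values were raw UMI counts per gene and barcode. Barcodes in the lowest or highest 1% of genes detected, or with over 20% mitochondrial UMIs, were removed, as were the highest doublet scores (Scrublet, scanpy 1.11.5) at 0.8% per 1000 barcodes, since the automatic threshold called 2065, 4 and 755. Clustering used Seurat 5.3.0 on 914 features without 107 listed genes, and subclusters leidenalg 0.10.2 after mutual-nearest-neighbour correction. Counts were summed per class and library. CPM carry exact Poisson intervals, log2 ratios exact conditional binomial intervals and shares Clopper-Pearson intervals, all 95%. A count of 0 was set to 3 counts. These cover counting error only, and with 1 library per group no test was made. A factor or gene was called at 2-fold or more with a mean of at least 5 CPM. The factors and lists were chosen with earlier results of these data known. All 10 factors are named in every comparison, of each other list up to 4 genes with the largest ratio, and for each factor the 3 genes most like it. Some genes that this rule names are not reported here. Scripts were tested on simulated data. Alternatives are given at the end. The cell annotation of the authors was not used here, so classes were rebuilt.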

Additional observations from a re-analysis of the deposited data

Results flagged for a closer look

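Barcodes that the comparisons leave out also carried *Sox17* and *Msx1*. Among *LApcL* barcodes over 20% mitochondrial UMIs, *Sox17* stood at 96.04 CPM (81.4 to 113) and *Msx1* at 88.5 (74.4 to 104), where 62 WT barcodes held no UMI of either, which allows up to 6.40 CPM. The 2342 *LApc* barcodes of this kind were under that limit, at 5.34 CPM of *Sox17* and 2.75 of *Msx1*. Levels above those of WT were also found among barcodes removed as doublets, where *Sox17* stood at 20.7 CPM (17.8 to 23.9) in *LApc* and 209 (204 to 215) in *LApcL*, against 0.268 in WT. *Msx1* stood there at 16.7 CPM (14.1 to 19.6) in *LApc* and 259.6 (254 to 266) in *LApcL*, against 0.134 in WT.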

How the results depend on the processing

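The number of factors called was recomputed under each alternative, and it was within 1.5-fold of the value given under most. Between *LApcL* and *LApc* adenoma cells (3 called), it was 1 without ribosomal protein and mitochondrial genes in the total, 8 at a 1.5-fold limit, 0 in S100g-high cells alone and 1 without cells holding an immune or stromal UMI, an alternative chosen after seeing the data. At a 1.5-fold limit it was 4 between *LApc* and WT, 5 between *LApcL* and WT, 6 between adenoma and other cells of *LApcL* and 4 for Fabp6-high cells. Without a minimum level it was 2 between *LApc* and WT crypt-type cells, and without the neighbour correction 4 for *LApcL* adenoma against other cells. Among log2 ratios whose interval excluded 0, these turned: under TMM, *Gata6* (-0.0107) in *LApc* against WT, *Gata4* (-0.0080) in *LApcL* against WT, *Gata6* (-0.0653) in *LApc* adenoma against other cells and *Cdx2* (0.0351) in enterocytes. TMM also turned 5 whose interval spanned 0, given with their comparisons. Without ribosomal protein and mitochondrial genes *Gata4* turned to -0.13 in enterocytes, and at clustering resolution 0.4 it turned to -0.17 in *LApcL* against WT. Classes from marker scores turned *Sox9* (0.34) and *Sox4* (0.26) in Fabp6-high cells. Between the mutants' adenoma cells, *Cdx1* (-0.34), *Cdx2* (-0.36) and *Hnf4a* (-0.38) turned without the correction, and *Cdx2* (-0.42) and *Onecut2* (0.36) in S100g-high cells. The cause of these changes was not tested, other than that fewer cells enter where cells were left out. No paired analysis was possible because each group had 1 library. Depth limits *Sox17* and *Msx1* in WT, where levels were at or near a count of 0.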

Other observations

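In WT, the few UMIs of *Sox17* outside crypt-type cells were 2 in tuft-like and 2 in goblet-like cells. *Msx1* had its highest WT level in enteroendocrine-like cells, at 2.21 CPM (0.887 to 4.55, 7 UMIs). Against this, *LApcL* enteroendocrine-like cells held 221 CPM (202 to 242, 475 UMIs). *Foxa2*, a forkhead factor of gut endoderm, stood at 39.2 CPM in *LApc* and 52.4 in *LApcL* in the unnamed cluster without WT cells, where *Muc5ac*, a mucin of the stomach surface, stood at 178 and 101 CPM. *Sox9* stood at 189 and 79.2 CPM and *Sox4* at 111 and 88.5 CPM in the same cells.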
